A study of Homo sapiens with 8 samples.

Results

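The glucocorticoid receptor (GR) was compared in the same cells under a glucocorticoid and under a progestin. In A1-2 cells, 18415 GR peaks were used after dexamethasone (Dex) and 1185 after R5020, 19600 peaks in all out of 93493 used from the 8 lists of the series. The members were all GR peaks of both hormone-treated libraries on chromosomes 1 to 22 and X that overlapped no peak of the A1-2 input DNA. A Dex peak and an R5020 peak that overlapped by at least 1 bp made a common site, and the others were Dex-only or R5020-only. Common sites comprised 588 Dex peaks and 520 R5020 peaks, and 17827 peaks were Dex-only and 665 R5020-only. Joined where they overlapped, the lists made 18952 regions, of which 460 (2.43%) were common, 17827 (94.1%) Dex-only and 665 (3.51%) R5020-only. Since a stretch of chromosome 16 from 34 to 36 Mb holds dense runs of peaks, values are also given without it. It held 271 Dex peaks and 318 R5020 peaks, and outside it 333 regions were common, 17728 Dex-only and 503 R5020-only.

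T47D cells are an established line from a human breast cancer, and A1-2 is a derivative with both GR and the progesterone receptor (PR), known as a stable GR transfectant. GR was recovered with a mix of 2 antibodies after 60 min of 10 nM Dex, after 60 min of 10 nM R5020, or from untreated A1-2 cells. PR was recovered with 1 antibody after 60 min of 10 nM R5020 or without hormone, from A1-2 cells and from MTVL WT cells, the T47D line that the labels call a control. All cells had been grown in hormone-stripped serum and then starved of serum. With 1 library for each condition, differences between ligands have no replicate check, and no test was made and no p computed. Shares carry exact (Clopper-Pearson) 95% intervals over peaks, which cover counting error only and take peaks as independent, which neighbouring peaks are not. The depth of the libraries is not known and peak numbers move with it, so the absence of a peak from a list is not the absence of binding.

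GR and PR are steroid receptors that bind closely related hormone response elements on DNA. Ligand binding frees them from chaperones and leads to dimer formation and to binding at chromatin, often at enhancers that other factors keep open. Dex is a synthetic ligand of GR. R5020 is a synthetic progestin used as a PR ligand, and progestins can also bind GR with lower affinity. In A1-2 cells, R5020 therefore meets both receptors in one nucleus.

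Dex gave far more GR peaks than R5020 at matched dose and time. The Dex list was 15.5 times as long as the R5020 list, and 20.9 times as long outside the block on chromosome 16. With chromosome 3 beyond 150 Mb left out as well it was 23.5 times as long. Peaks covered 13.5 Mb after Dex, against 1.69 Mb after R5020. GR R5020 peaks were wider, with a median of 659 bp for Dex peaks and 978 bp for R5020 peaks. Peaks of 2 kb or more made up 1.05% of the Dex list. Among R5020 peaks they made up 21.3% of the common ones and 14.4% of the R5020-only ones. Shares near an input peak differed by little between the classes, and their order depended on the block, which held 0 input peaks. An input peak lay within 50 kb of 5.10% of the common Dex peaks, 5.33% of the Dex-only peaks and 4.51% of the R5020-only peaks. Outside the block these shares were 7.21%, 5.36% and 5.96%.

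Whether a Dex site was also called after R5020 went with its strength after Dex. The deposited score, taken as the log10 of a peak's p multiplied by -10, ran up to a ceiling near 3100. It was read within a list, except where 1 cutoff was set for both lists or pairs were ranked by their lower score. Over the whole Dex list, 3.19% of the peaks were common (2.94 to 3.46), or 2.29% outside the block. Midpoints within 200 bp were found for 1.35%, and 249 regions were common by that rule. In the lowest 5 deciles of the Dex score the share lay between 1.74% and 2.17%. It was 4.61% in the ninth decile and 8.47% in the highest. Inside the highest decile it went on upward, with 10.7% of the 1076 Dex peaks scoring 1000 or more and 25.6% of the 262 scoring 2000 or more. Of the 81 scoring 3100 or more it was 40.7% (29.9 to 52.2). None of those 81 lay in the block. Nearly all of the 33 common and 48 Dex-only peaks at the ceiling lay at PR peaks, which leaves little room for a difference. PR peaks of A1-2 cells lay at all 33 and all 48, and PR peaks of MTVL cells at 32 and 47.

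Seen from the R5020 list, the score did not order the sites in this way. Of the R5020 peaks, 43.9% were common (41.0 to 46.8), or 42.0% outside the block. Asking for midpoints within 200 bp made it 21.0%, and a Dex list cut by score to the length of the R5020 list made it 11.6%. By decile, with the 1 bp rule, the share was 45.4% in the lowest decile of the R5020 score and 39.8% in the highest, with a maximum of 56.8% in the fourth. Outside the block it was 46.9% in the lowest decile and 33.0% in the highest. By the 1 bp rule, strong R5020 peaks were thus no more often Dex sites than weak ones. Wide peaks meet that rule more easily. Common R5020 peaks scoring 1000 or more had a median width of 4210 bp, against 908.5 bp for those with lower scores. Their nearest Dex midpoint was 810 bp away at the median, against 173 bp.

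**Figure D1:**
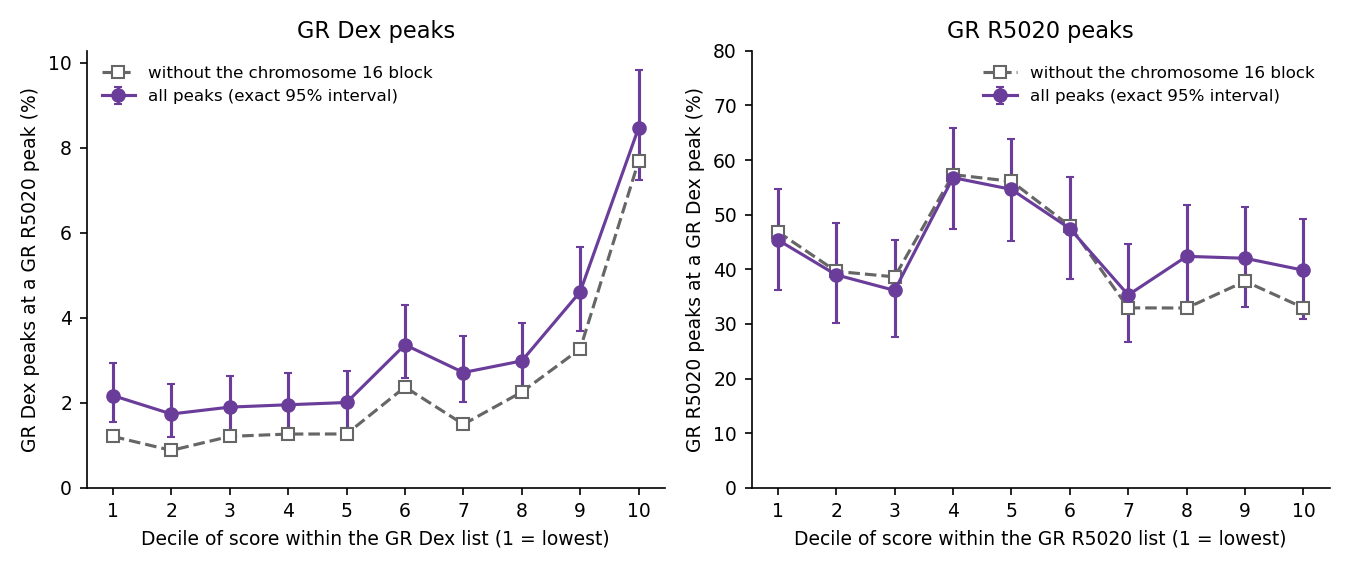
Share of GR Dex peaks at a GR R5020 peak (left) and of GR R5020 peaks at a GR Dex peak (right), in percent, by decile of the deposited score within each list. Circles are all peaks with exact 95% intervals and open squares leave out chromosome 16 from 34 to 36 Mb. On the left the share reaches 8.47% in the highest decile, and on the right the share is 39.8% there and 45.4% in the lowest.

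The R5020 peaks at the strongest common Dex sites were not among the strongest of their own list. On chromosome 14 from 95737736 to 95739063, the strongest Dex peak (score 3203) met an R5020 peak from 95737843 to 95738626 with a score of 235. On chromosome 3 from 32078322 to 32079030, a Dex peak with a score of 3162 met an R5020 peak with a score of 187, with midpoints 37.5 bp apart. Both sites had PR peaks in A1-2 and in MTVL cells and no peak without hormone. The next by score differed from these in shape and in its other peaks. It was a Dex peak of 5846 bp at the ceiling, on chromosome 1 from 110706938 to 110712783, and it met 5 R5020 peaks, the strongest of which scored 468. It had a PR peak in A1-2 cells, none in MTVL cells, and GR and PR peaks of untreated A1-2 cells. Of the first 10 common Dex peaks by score, 10 had a PR peak in A1-2 cells, 9 one in MTVL cells and 1 a GR peak of untreated cells. At the 37 pairs whose Dex peak scored 3100 or more, the R5020 peak scored between 101.6 and 588. The median was 175, against 240 over the whole R5020 list. No R5020 peak at a ceiling Dex site therefore reached the top of its own list, where 10% of the peaks scored 1236 or more. The highest of them, 588, lay just above the upper quartile of that list, 564.

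The strongest R5020 peaks at common sites had another shape. The highest score, 3205, belonged to a peak of 11347 bp on chromosome 7 from 10671419 to 10682765. It overlapped 2 Dex peaks, the stronger of which scored 697. Next came a peak of 9284 bp in the block, from 35148457 to 35157740 (score 3178), which met 1 Dex peak with a score of 220. The widest peak of the list, 19129 bp on chromosome 3 from 60473102 to 60492230 (score 3100), spanned 10 Dex peaks with scores from 134 to 1121, which together covered 66.2% of its length. Of these 10 Dex peaks, 9 lay at a PR peak of A1-2 cells, 0 at a PR peak of MTVL cells and 7 at a GR peak of untreated cells. Of the first 10 common R5020 peaks by score, 9 were 3 kb wide or more and 2 lay at a PR peak of MTVL cells. The exception in width, on chromosome 12 from 14410345 to 14411311 (score 3100), was 967 bp wide and had PR peaks in both lines, and it met 1 Dex peak with a score of 135. Among all 60 common R5020 peaks scoring 1000 or more, each counted once, the median width was 4210 bp and 56 were 2 kb wide or more. Their strongest Dex partner had a median score of 235, and the nearest Dex midpoint was 810 bp away at the median. An MTVL PR peak lay at 11.7% (4.82 to 22.6) of the 60, against 42.0% (37.4 to 46.6) of the 460 common R5020 peaks with lower scores. Outside the block these shares were 18.9% (7.96 to 35.2) of 37 and 58.1% (52.6 to 63.5) of 327.

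Over all 648 overlapping pairs, the Dex and R5020 scores ran against each other. Spearman's rho was -0.31, and -0.39 for the 447 pairs outside the block, as a description of pairs that share libraries and often neighbours. A score of 1000 or more from both ligands was found at 3 pairs. That cutoff is not equal in the 2 lists, as 5.84% of Dex peaks and 12.9% of R5020 peaks reached it. One lay inside the block, from 34666070 to 34668164 after Dex (score 1184). Another was the strongest Dex peak under the 19129 bp peak on chromosome 3. The remaining pair, on chromosome 5, ran from 142661080 to 142661797 after Dex (score 1608) and from 142660909 to 142661932 after R5020 (score 1032), with midpoints 18 bp apart. It had a PR peak in A1-2 cells and a GR peak without hormone, and no PR peak in MTVL cells.

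**Figure D2:**
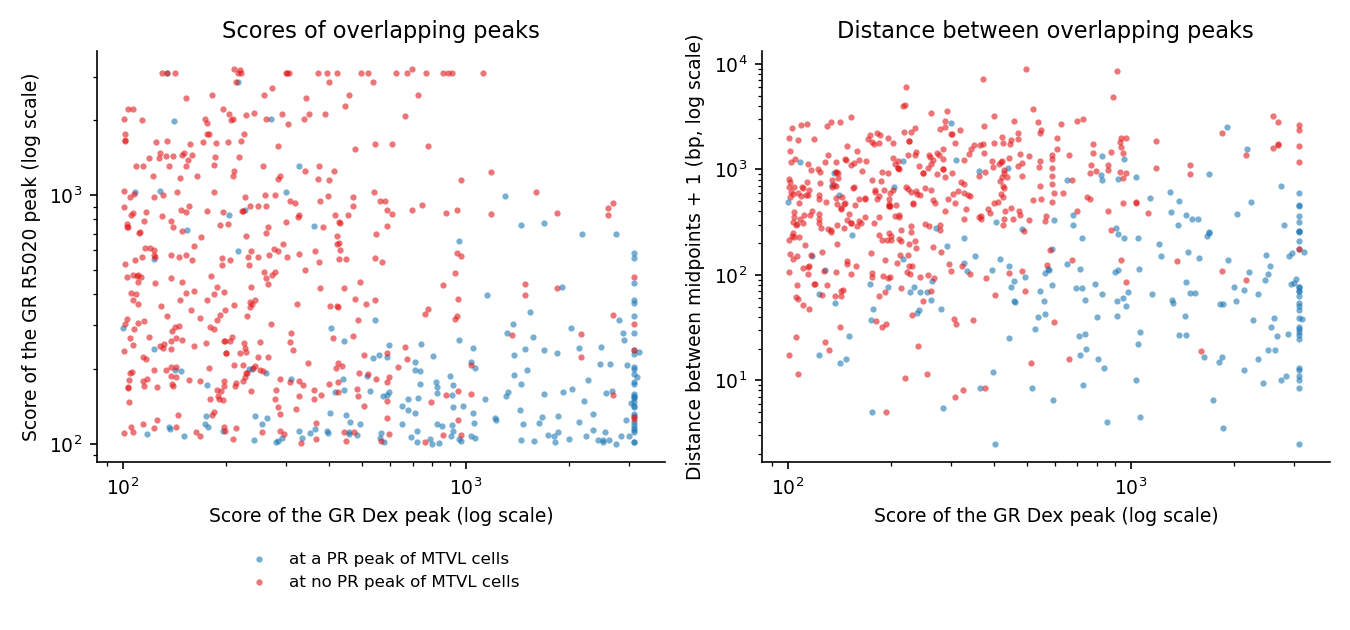
Each point is 1 of 648 overlapping pairs of a GR Dex and a GR R5020 peak, with the deposited Dex score on the horizontal axis and the R5020 score (left) or the distance between midpoints plus 1 bp (right) on the vertical axis, all on log scales. Blue pairs lie at a PR peak of MTVL cells and red pairs do not: at 127 pairs with a Dex score of 1000 or more 81.9% are blue, and below that score 19.96% are.

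Distance between midpoints sorted the common sites in the same manner. Of the pairs, 172 (26.5%) had midpoints less than 100 bp apart, and 267 (41.2%) had midpoints 500 bp or more apart. The close pairs had a median Dex score of 592 and a median R5020 score of 175. The distant pairs had a median Dex score of 287 and a median R5020 score of 751. R5020 peaks were 840 bp wide at the median in close pairs and 2353 bp in distant pairs. A PR peak of A1-2 cells lay at 93.6% of the close pairs and 82.4% of the distant ones. For MTVL cells the shares were 68.6% (61.1 to 75.5) and 9.36% (6.15 to 13.5). GR peaks of untreated cells lay at 10.5% of the close pairs and 40.1% of the distant ones. Outside the block, the MTVL shares were 77.6% of 152 close pairs and 14.6% of 151 distant pairs. A wide R5020 peak enters once for each Dex peak it spans. With each common R5020 peak counted once, by its nearest Dex midpoint, 172 were close and 145 distant. Their median widths were 840 and 1696 bp and their median scores 175 and 476, and MTVL PR peaks lay at 69.2% and 10.3% of them. Wide peaks can have distant midpoints by their width alone, so distance and width are not separate observations.

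PR binding was a readout that the classes did not use. PR peaks of A1-2 cells after R5020 lay at 73.8% of all Dex peaks. The share was 82.1% (78.8 to 85.2) of the common Dex peaks and 73.5% (72.9 to 74.2) of the Dex-only peaks. Common peaks had higher Dex scores, with a median of 306 against 191. Dex-only peaks weighted to the score deciles of the common ones gave 81.4%, close to the 82.1% observed, and outside the block the common share was 86.8% and the weighted one 83.9%. At similar Dex scores, common and Dex-only peaks thus lay at A1-2 PR peaks about equally often. With all lists held to scores of 200 or more, the crude shares were 77.97% of common and 78.8% of Dex-only peaks. Where there was an A1-2 PR peak, its own score had a median of 585 at common Dex peaks and 459 at Dex-only peaks, or 937 and 461 outside the block. The highest score was taken where a Dex peak met several PR peaks. These medians were not weighted for the higher Dex scores of common peaks.

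In MTVL cells the order was the other way round. PR peaks of MTVL cells after R5020 lay at 69.3% of all Dex peaks, at 34.7% (30.9 to 38.7) of the common Dex peaks and at 70.4% (69.8 to 71.1) of the Dex-only peaks. Outside the block the shares were 48.3% (43.4 to 53.2) and 70.8% (70.2 to 71.5). Common peaks were lower in 10 of 10 deciles of the Dex score, with and without the block. The share was 5% of common and 50.3% of Dex-only peaks in the lowest decile, 35.3% and 88.2% in the ninth, and 81.4% and 95.6% in the highest. Dex-only peaks weighted to the deciles of the common ones gave 77.8%, so that the difference, common minus weighted Dex-only, was -43.1 percentage points, or -32.2 outside the block. With all lists held to scores of 200 or more, the crude shares were 22.03% and 74.9%, and with the Dex list cut to the length of the R5020 list they were 88.5% and 96.5%. Among 19 chromosomes with at least 5 common Dex peaks outside the block, the common share was the lower one on 14. On chromosome 13 it was 7.14% of 14 common peaks and 75.9% of 395 Dex-only peaks, and on chromosome 2 it was 23.8% of 42 and 74.4% of 1114. Chromosome 14 showed the opposite, with 84.2% of 19 common peaks and 61.1% of 942 Dex-only peaks, as did chromosome 20, with 81.3% of 16 and 58.7% of 778. Common sites were not alike in this. Outside the block, an MTVL PR peak lay at 77.6% (70.2 to 84.0) of the 152 pairs with midpoints less than 100 bp apart. That crude share was not below the 70.8% of Dex-only peaks. The median Dex score was 732 in these pairs and 191 for Dex-only peaks, and the comparison was not weighted for it.

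**Figure D3:**
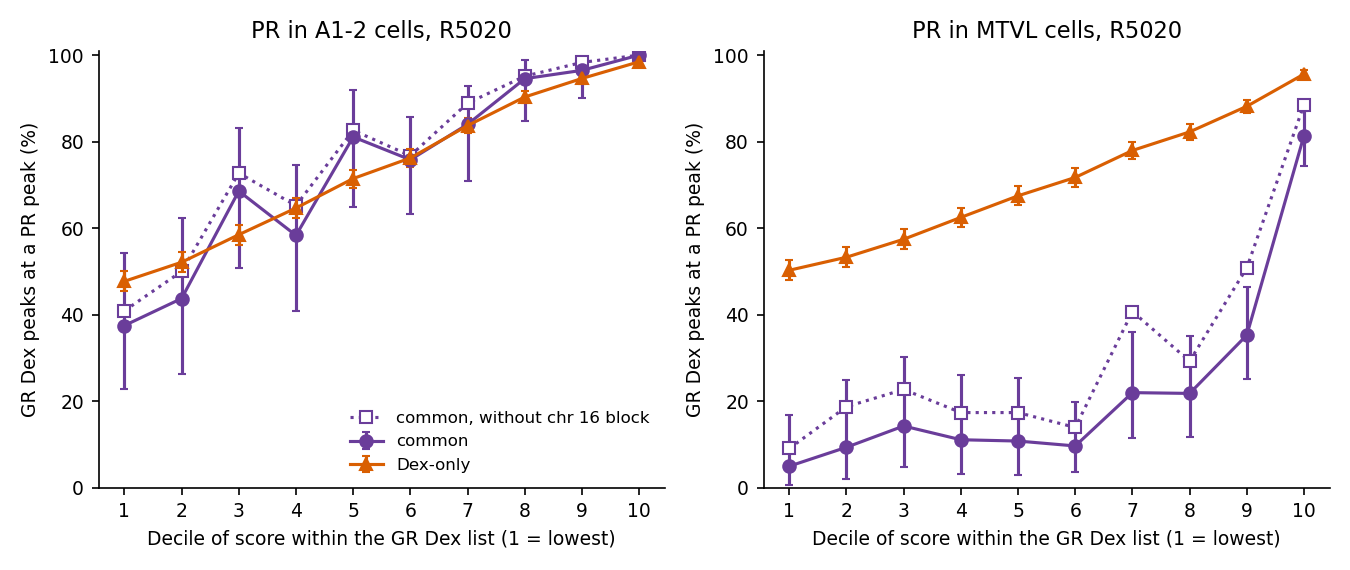
Share of GR Dex peaks at a PR peak of R5020-treated A1-2 cells (left) or MTVL cells (right), in percent, by decile of the Dex score. Purple is common, with open squares leaving out chromosome 16 from 34 to 36 Mb, and orange is Dex-only; bars are exact 95% intervals. The classes run together on the left, and on the right common peaks are lower in 10 of 10 deciles, with 81.4% and 95.6% in the highest.

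The PR pattern divided the common Dex peaks into groups that differed in the other readouts. PR peaks of both lines lay at 203 of the 588 (34.5%), a PR peak of A1-2 cells alone at 280 (47.6%), none at 104 (17.7%), and a PR peak of MTVL cells alone at 1. In the Dex-only class the same patterns held 64.2%, 9.29%, 20.3% and 6.20%. The 203 common peaks with PR in both lines had a median Dex score of 1051, a median R5020 score of 158 and a median distance between midpoints of 75 bp. The 280 with PR in A1-2 cells alone had a median Dex score of 259, a median R5020 score of 567 and a median distance of 641.5 bp. The R5020 peaks were 821 bp wide at the median in the first of these groups and 1957 bp in the other, with a wide peak counted for each Dex peak it spans. GR peaks of untreated cells lay at 5.91% of the 203 and at 40% of the 280, and untreated PR peaks of A1-2 cells at 8.87% and 45.0%. Another Dex peak stood within 20 kb of 67.5% of the 203 and 93.6% of the 280. Outside the block, 200 and 161 were left, with median Dex scores of 1044 and 256, median R5020 scores of 156 and 607, and untreated GR peaks at 5.50% and 38.5%. The division by PR pattern was made after the data had been seen.

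Common sites were also those most often called without hormone, by a margin over R5020-only peaks that depended on the rule. A GR peak of untreated A1-2 cells lay at 1.19% of all Dex peaks and 11.2% of all R5020 peaks. It lay at 22.96% (19.6 to 26.6) of the common Dex peaks, 0.477% (0.381 to 0.589) of the Dex-only peaks and 2.11% (1.16 to 3.51) of the R5020-only peaks. Outside the block the shares were 19.0%, 0.395% and 1.19%. With midpoints within 200 bp as the rule they were 10.0%, 0.606% and 2.67%. With the Dex list cut to the length of the R5020 list, they were 15.6% (9.64 to 23.2), 0.564% and 10.2% (8.44 to 12.2). The intervals of common and R5020-only peaks then overlapped. R5020 peaks at lower-scoring Dex peaks count as R5020-only after that cut, so the overlap says nothing of peaks away from the full Dex list. For untreated PR peaks of A1-2 cells, made with another antibody, the share was 1.36% of all Dex peaks and 12.0% of all R5020 peaks, and they lay at 27.0% of the common Dex peaks, 0.510% of the Dex-only peaks and 1.504% of the R5020-only peaks. Untreated PR peaks of MTVL cells lay at 0.842% of all Dex peaks and 1.27% of all R5020 peaks, and at 2.38%, 0.791% and 0.150% of the classes in the same order. Peaks called without hormone in A1-2 cells were thus found at common sites with both antibodies.

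**Figure D4:**
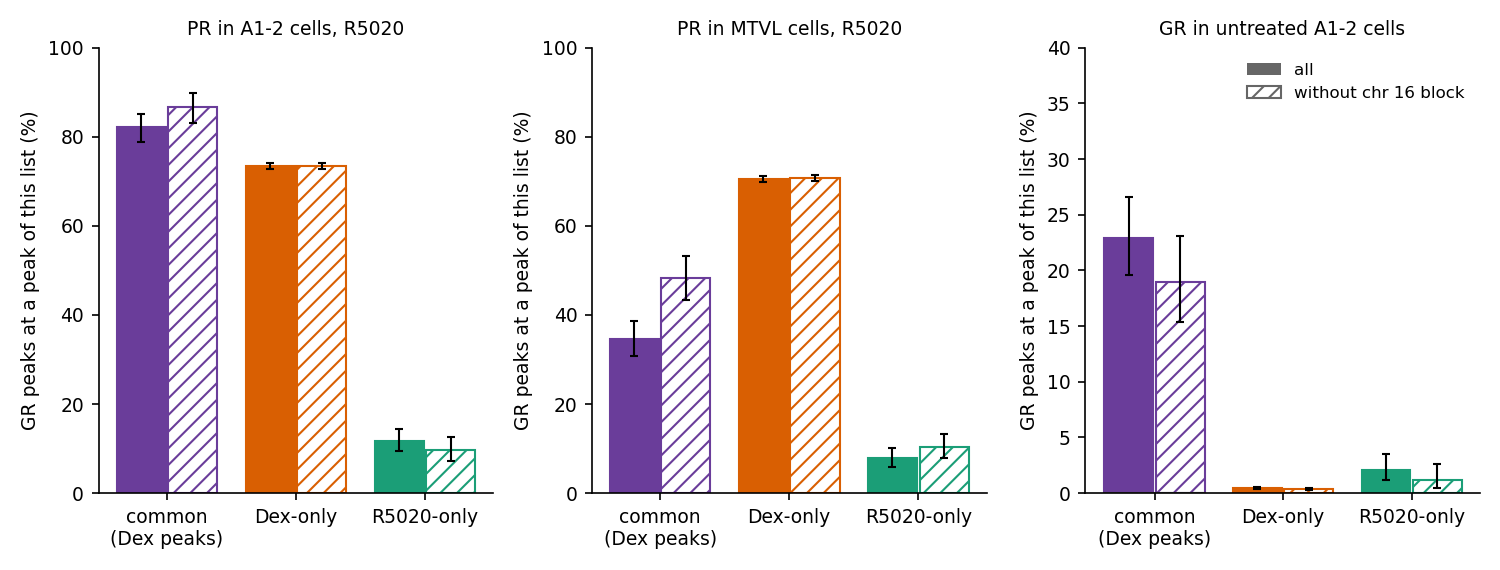
Share of common Dex peaks, Dex-only peaks and R5020-only peaks that lie at a peak of PR in A1-2 cells after R5020 (left), PR in MTVL cells after R5020 (middle) and GR in untreated A1-2 cells (right, with its own scale), in percent, with exact 95% intervals. Solid bars are all peaks and hatched bars leave out chromosome 16 from 34 to 36 Mb. Common peaks reach 22.96% in the right panel, against 0.477% for Dex-only peaks, while R5020-only peaks stay at 11.7% or below in each panel.

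Dex-only sites included some of the strongest in the list. The highest score, 3187, belonged to 215337891 to 215338548 on chromosome 1. Next came 11629409 to 11630280 on chromosome 1 with 3178, 47831198 to 47832017 on chromosome 7 with 3154, 14588701 to 14589717 on chromosome 5 with 3144, and 53100609 to 53101423 on chromosome X with 3121. The nearest R5020 peaks were 189, 772, 2821, 2187 and 9370 kb away in the same order. All of them had a PR peak in A1-2 and in MTVL cells and no peak without hormone. Of the first 10 Dex-only peaks by score, the exception for MTVL cells was on chromosome 1 from 177558232 to 177559362, with a PR peak in A1-2 cells and none in MTVL cells. Dex-only peaks had a median score of 191 and a median width of 657 bp, and common Dex peaks had 306 and 817.5 bp. A neighbouring Dex peak stood within 20 kb of 85.0% of the common and 53.0% of the Dex-only peaks, or 78.8% and 52.7% outside the block. An R5020 peak lay within 1 kb of 119 Dex-only peaks, 52 of them in the block.

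R5020-only peaks lay at PR sites less often than common R5020 peaks did, although both receptors had been exposed to R5020. PR peaks of A1-2 cells lay at 45.0% of all R5020 peaks, but at 87.5% (84.3 to 90.2) of the common R5020 peaks and 11.7% (9.38 to 14.4) of the R5020-only peaks. PR peaks of MTVL cells lay at 21.3% of all R5020 peaks, 38.5% of the common and 7.82% of the R5020-only ones. Outside the block, the A1-2 shares were 44.2%, 91.8% and 9.74% (7.29 to 12.7), and the MTVL shares 28.7%, 54.1% and 10.3% (7.82 to 13.3). The share of R5020-only peaks at PR was thus the higher one for A1-2 cells with the block, and about the same for both lines without it. These low shares are those of R5020 peaks that overlapped no peak of the full Dex list. With the Dex list cut to the length of the R5020 list, 1048 R5020 peaks were R5020-only. Of these, 37.9% (34.9 to 40.9) lay at a PR peak of A1-2 cells and 13.8% (11.8 to 16.1) at one of MTVL cells. That cut moves R5020 peaks at lower-scoring Dex peaks from the common to the R5020-only class, so higher shares follow from it by construction. Neither line had a PR peak at 566 of the 665 R5020-only peaks (85.1%), and both had one at 31. Among these 31, the peak at 200638449 to 200639847 on chromosome 1 scored highest with 2692, followed by 129299586 to 129300554 on chromosome X with 2156.

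R5020-only peaks were not weak within their list. Their median score was 258, against 227 for the common R5020 peaks, and 93 of 665 (14.0%) scored 1000 or more, compared with 60 of 520 (11.5%). The first 10 by score, all at the ceiling of 3100, were 1018 to 1795 bp wide, and the distance to the nearest Dex peak ran from 2.45 to 185 kb. In order of position, the first 3 of the 10 lay on chromosome 1, where they spanned 27018357 to 27020151, 27021512 to 27022650 and 51984687 to 51985718. The fourth was found at 185654845 to 185655997 (chromosome 4), and the fifth at 61348457 to 61349610 (chromosome 11). The first of these 5 had a PR peak in MTVL cells and the fifth one in A1-2 cells. Of the 10, 7 had no PR peak and no hormone-free peak in either line, 1 had a PR peak in A1-2 cells and 2 had one in MTVL cells. Of the 665, 117 lay within 1 kb of a Dex peak, 75 of them in the block, so that a looser rule would call these common. Among the near ones outside the block, the peak on chromosome 12 from 53296717 to 53297893 (score 2708) was 0.546 kb from a Dex peak and the one on chromosome 22 from 38851596 to 38852659 (score 2288) was 0.070 kb away.

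The classes were spread differently over the chromosomes. Chromosome 16 held 33.0% of the common Dex peaks, 5.35% of the Dex-only peaks and 26.3% of the R5020-only peaks, and 5.29%, 4.82% and 2.58% outside the block. Chromosome 3 held 7.99% of the common, 7.10% of the Dex-only and 16.8% of the R5020-only peaks. Most of the last stood beyond 150 Mb, where 105 R5020-only peaks had a median score of 129 and a median width of 2025 bp. The same stretch took 1.87% of the common Dex peaks, 2.43% of the Dex-only peaks and 7.28% of the peaks called in input, and the part of the input signal in this was not tested. With the block and chromosome 3 beyond 150 Mb left out, 398 R5020-only peaks remained, with a median score of 357 and a median width of 887.5 bp, and 75 of them scored 1000 or more. PR peaks of A1-2 cells lay at 11.8% (8.81 to 15.4) of these and PR peaks of MTVL cells at 12.6% (9.47 to 16.2). Outside the block, chromosome 19 held 0.721% of the common Dex peaks, 2.01% of the Dex-only and 5.37% of the R5020-only peaks, with 0.228% of the input peaks.

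**Figure D5:**
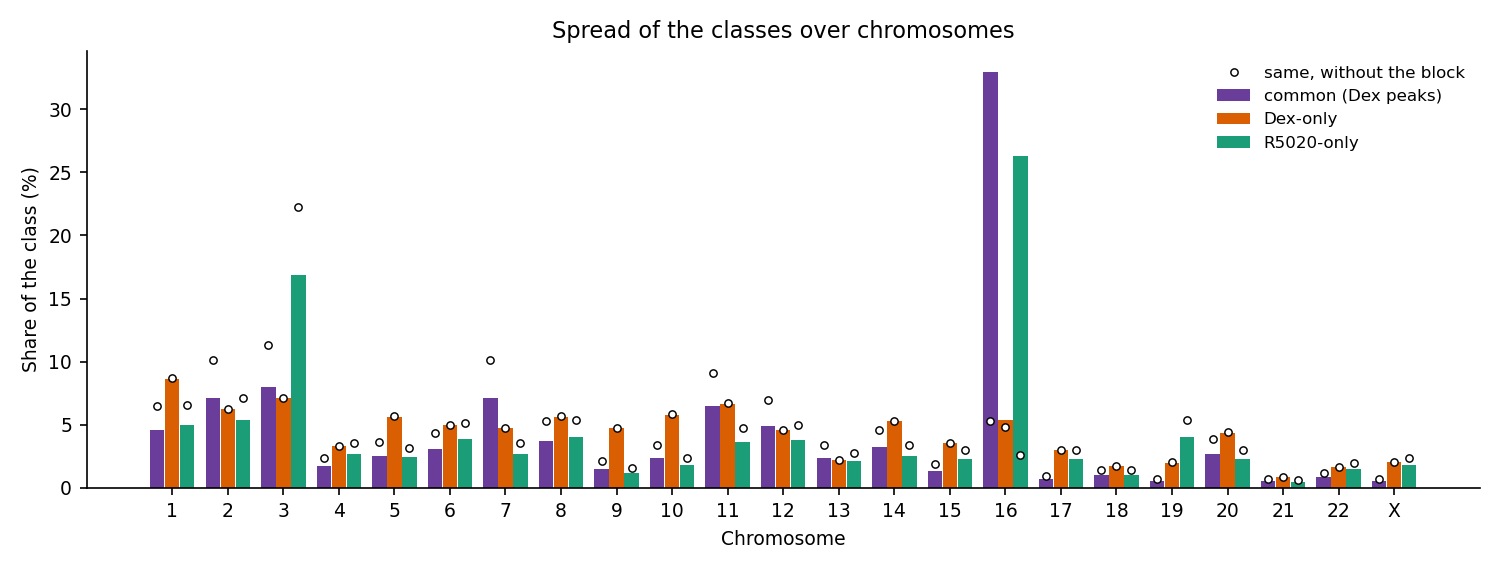
Share of each class on each chromosome, in percent of the class, for common Dex peaks (purple), Dex-only peaks (orange) and R5020-only peaks (green). Open circles are the same shares without chromosome 16 from 34 to 36 Mb. Chromosome 16 holds 33.0% of the common and 26.3% of the R5020-only peaks with the block and 5.29% and 2.58% without it, and chromosome 3 holds 16.8% of the R5020-only peaks.

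PR peaks inside the block came almost wholly from A1-2 cells. The block held 172 common Dex peaks, 99 Dex-only peaks and 162 R5020-only peaks. PR peaks of A1-2 cells lay at 70.9%, 73.7% and 17.9% of them, and PR peaks of MTVL cells at 1.74%, 0% and 0%. For 0 of 99 Dex-only and 0 of 162 R5020-only peaks, the exact 95% intervals reach 3.66% and 2.25%, and 3 counts of the total would be 3.03% and 1.85%. The input list of A1-2 cells held 0 peaks there. Among the strongest pairs in the block, the Dex peak from 34759970 to 34761716 (score 2740) met an R5020 peak of 3603 bp with a score of 698, and the Dex peak of 6892 bp from 34790141 to 34797032 (score 2696) met an R5020 peak of 6093 bp with a score of 929. The strongest R5020-only peak there spanned 7205 bp from 34890097 to 34897301 (score 2990) and stood 0.758 kb from a Dex peak.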

How the data were processed

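Peaks were taken from 8 deposited lists, 1 per ChIP-seq library. The build hg19 and the tools MACS 1.4.2, Bowtie 1.1.1 and bedtools are listed, without their roles, in the submitters' processing notes. For their settings, the control library, read depth and filters, the sources used here give nothing. Each deposited list gives chromosome, start, end and a score per peak, the authors' own value, taken here as log10 of the caller's p multiplied by -10: the lowest score is 100, and a threshold of 1e-10 stands in the deposited names. Scores were compared within a list, except for cutoffs set for both lists and pairs ranked by their lower score.

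Of 18538 deposited GR peaks after Dex 18415 were used, and of 1198 after R5020 1185, leaving out other chromosomes and peaks at input peaks. PR and untreated peaks at input peaks were left out too. Overlaps of at least 1 bp counted as shared. Midpoint distances, same-list neighbours within 20 kb, and deciles of the score (ties in order of position) were computed with Python 3.11.15, numpy 2.4.6 and scipy 1.17.1, and figures with matplotlib 3.10.9. Overlap counts were tested on simulated data and against bedtools 2.31.1. Samples were grouped by title. No test between conditions was made.

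The peaks named are the first 2 to 5 of the 10 highest-scoring in each class, the first 3 of the pairs with the highest lower score, and the first 1 or 2 of classes inside the block, with ties in order of position. Exceptions within a first 10, peaks near Dex peaks, at PR of both lines and the widest peak were chosen after their values were seen. The members and lists were chosen with earlier results of these data known. The gene and promoter tables used here are of another build, so 0 genes were placed, and planned gene distances, motifs and sequences were not run. Alternatives were a score of at least 200, input peaks kept, other overlap rules, no block, lists of equal length, no peaks at untreated GR peaks, and, added later, no block and no chromosome 3 beyond 150 Mb.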

Additional observations from a re-analysis of the deposited data

How the results depend on the processing

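The 15 results were recomputed in 132 alternatives. In 70 the value lay inside the 95% interval first reported (for counts and the ratio, less than 1.5 times away), and in 62 it lay outside. Triplets below are for common Dex, Dex-only and R5020-only peaks. Asking a score of 200 or more of all lists gave 2.67% of Dex and 30.2% of R5020 peaks common, 182 common and 8618 Dex-only regions, A1-2 PR shares of 77.97%, 78.8% and 8.44%, MTVL shares of 22.03% and 74.9% for the first pair, and untreated GR shares of 14.8%, 0.278% and 0%. The higher A1-2 PR share of common peaks was thus gone there. An overlap of 50% of the shorter peak gave 2.87% and 39.0% common. Midpoints within 200 bp gave 1.35% and 21.0% common, 249 common regions, A1-2 PR shares of 73.9%, 68.3% and 6.73%, MTVL shares of 51.0%, 62.9% and 4.59%, and untreated GR at 10.0% of common and 0.606% of Dex-only peaks. A gap of at most 1 kb gave 3.84% and 53.8% common, A1-2 PR at 91.9% of common and 75.4% of Dex-only peaks, MTVL PR at 73.1% of Dex-only and 12.0% of R5020-only peaks, and untreated GR at 31.1% of common peaks. Without the block, 2.29% of Dex peaks were common, with A1-2 PR at 86.8%, MTVL PR at 48.3% and untreated GR at 19.0% of common peaks and MTVL PR at 10.3% of R5020-only peaks. A Dex list of the length of the R5020 list (ratio 1) gave 10.3% and 11.6% common, 121 common, 1063 Dex-only and 1048 R5020-only regions, A1-2 PR shares of 100%, 98.9% and 37.9%, MTVL shares of 88.5%, 96.5% and 13.8%, and untreated GR at 15.6% of common and 10.2% of R5020-only peaks. Leaving out peaks at untreated GR peaks gave 2.26% and 35.4% common and MTVL PR at 46.2% of common peaks. Without the block and chromosome 3 beyond 150 Mb, chosen after seeing the data, the Dex list was 23.5 times as long, 2.29% and 47.1% were common, 398 regions were R5020-only, A1-2 PR lay at 86.7%, MTVL PR at 47.4% and untreated GR at 19.5% of common peaks, and MTVL PR lay at 12.6% of R5020-only peaks. Fewer peaks enter most of these settings by construction, and otherwise the cause was not tested. With common peaks taken as 1 class, MTVL PR peaks were less frequent at common than at Dex-only peaks in each of the 9 settings. Depth, which was unknown, limits every count of Dex-only and R5020-only sites. No paired analysis was possible because each condition had 1 library.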
